A study of Bos taurus with 68 samples.

Results

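The clones described here carry cDNA of cytosolic ribosomal proteins, the RPL proteins of the large subunit and the RPS proteins of the small subunit. They were chosen by symbol: every listed clone of the larger deposited table whose only gene begins RPL or RPS with a digit, or is RPLP0, RPLP1, RPLP2 or RPSA, without the RPS6K kinases. Of 5693 listed clones 58 met this rule. They name 48 genes, 30 of the large subunit on 37 clones and 18 of the small subunit on 21 clones. The large subunit was represented by RPL3, RPL5, RPL6, RPL7A, RPL7L1, RPL8, RPL10, RPL13A, RPL14, RPL15, RPL18, RPL19, RPL22, RPL23, RPL23A, RPL27, RPL28, RPL29, RPL30, RPL31, RPL32, RPL34, RPL35, RPL35A, RPL37, RPL37A, RPL38, RPL39, RPLP1 and RPLP2. The small subunit was represented by RPS2, RPS3, RPS3A, RPS7, RPS9, RPS10, RPS12, RPS14, RPS15A, RPS16, RPS18, RPS19BP1, RPS20, RPS21, RPS24, RPS25, RPS27 and RPS29. RPL7L1, a nucleolar paralog of RPL7, and RPS19BP1, a nucleolar protein that binds RPS19, meet the rule by name although neither is a structural protein of the mature ribosome. No clone named RPLP0 or RPSA alone.

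A cytosolic ribosome joins a small subunit, which reads the mRNA, to a large subunit, which forms the peptide bond. Ribosomal proteins are made in near-equal amounts, are imported into the nucleolus and are assembled there on ribosomal RNA. Most of their mRNAs start with a terminal oligopyrimidine tract, a run of pyrimidines through which growth signals acting by mTOR control translation of the set as a whole. The liver makes most plasma proteins, and in dairy cows it meets the metabolic load of milk production after calving.

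Liver RNA came from 5 cows, numbered 6934, 6983, 7079, 7186 and 7188, on days -65, -30, -14, 1, 14, 28 and 49 relative to calving. The groups are therefore 3 prepartum days in pregnant cows and 4 days after calving in the same animals, and the labels give no breed, age, diet or treatment. Each liver sample was hybridised against a reference standard RNA on a pair of 2-colour cDNA arrays with the dyes exchanged. What the reference was made from is not given in the sources used here. The 60 arrays of the larger table gave 30 cow-days. All 5 cows were measured there on days -65, -30, 1 and 28, but 3 of them on day -14, 3 on day 14 and 4 on day 49.

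All values are log2 ratios, read as liver over reference. Each array was centred on the median over its spots of listed clones, called the array median below. The value 0 is thus the middle of those spots. The labels do not say which dye is the numerator. The reading as liver over reference is likely only, and with the other numerator every sign below turns. In the reading used, 4 of 4 hepatocyte marker clones had mean ratios above 0, with a median of 1.56, and 3 of them passed the test against 0. The exchanged arrays of a cow-day ran opposite ways across rows in 25 of 30 cow-days and did not in the other 5. No channel intensities were used, so the number of arrays limits the precision, and a ratio compares liver with reference for 1 clone and does not rank the abundance of different mRNAs. In a bulk sample, fewer cells of a type and less RNA per cell cannot be told apart.

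Most ribosomal protein clones lay below the array median in these livers. Averaged over each cow, 52 of the 55 tested clones had a mean ratio below 0, against 47.8% of all 5280 tested clones, and the median over the members was -0.56 against 0.012 over all. A limma test of the 5 cow means against 0 called 40 of 55 below at an adjusted p under 0.05, which is 72.7% of the members beside 23.9% of all tested clones. It called 1 of 55 above, 1.82% beside 23.5% of all. The test was chosen after the values were seen, and it leaves out the spread of the reference itself. Of the large subunit 27 of 36 clones were called below and 1 above, and of the small subunit 13 of 19 were called below and 0 above.

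The lowest ratio was that of RPL35A, a protein of the large subunit mutated in some patients with Diamond-Blackfan anaemia. Its cow means were -1.18 in cow 6934, -1.47 in cow 6983, -1.76 in cow 7079, -1.62 in cow 7186 and -1.74 in cow 7188. Every cow lay far below 0, and all 30 cow-days did, with a mean of -1.55 ± 0.24 (SD, n = 5 cows; limma adjusted p = 3.29e-09). Clone 2 of RPS24, a small subunit gene also known from that anaemia, had cow means of -0.91, -1.44, -1.64, -1.51 and -1.46 in the same order of cows. Its mean was -1.39 ± 0.28 (SD, n = 5; limma adjusted p = 2.25e-08). RPS21, a small subunit protein needed for processing of 18S precursor RNA, had cow means of -1.22, -1.65, -1.34, -1.41 and -1.25. These averaged -1.37 ± 0.17 (SD, n = 5; limma adjusted p = 6.07e-09). RPL39, a short protein that lines the exit tunnel of the nascent chain, followed at -1.28 ± 0.13, and RPS20 at -1.19 ± 0.19 and RPL30 at -1.17 ± 0.26 came next.

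At the other end, clone 1 of RPL15 was the member called above the array median. Its cow means were 0.43, 0.33, 0.37, 0.67 and 0.35, so that every cow lay above 0, and the mean was 0.43 ± 0.14 (SD, n = 5; limma adjusted p = 0.00108). RPS27, a zinc finger protein of the small subunit, had a mean of 0.12 ± 0.17 (SD, n = 5) that did not pass (limma adjusted p = 0.343). RPLP1 stood at 0.0051 ± 0.10 (SD, n = 5; limma adjusted p = 0.974), with a 95% interval from -0.19 to 0.20. RPLP1 and RPLP2 are the acidic proteins of the lateral stalk of the large subunit, which docks elongation factors. RPLP2 lay below 0 at -0.60 ± 0.23 (SD, n = 5; limma adjusted p = 0.000138).

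**Figure D1:**
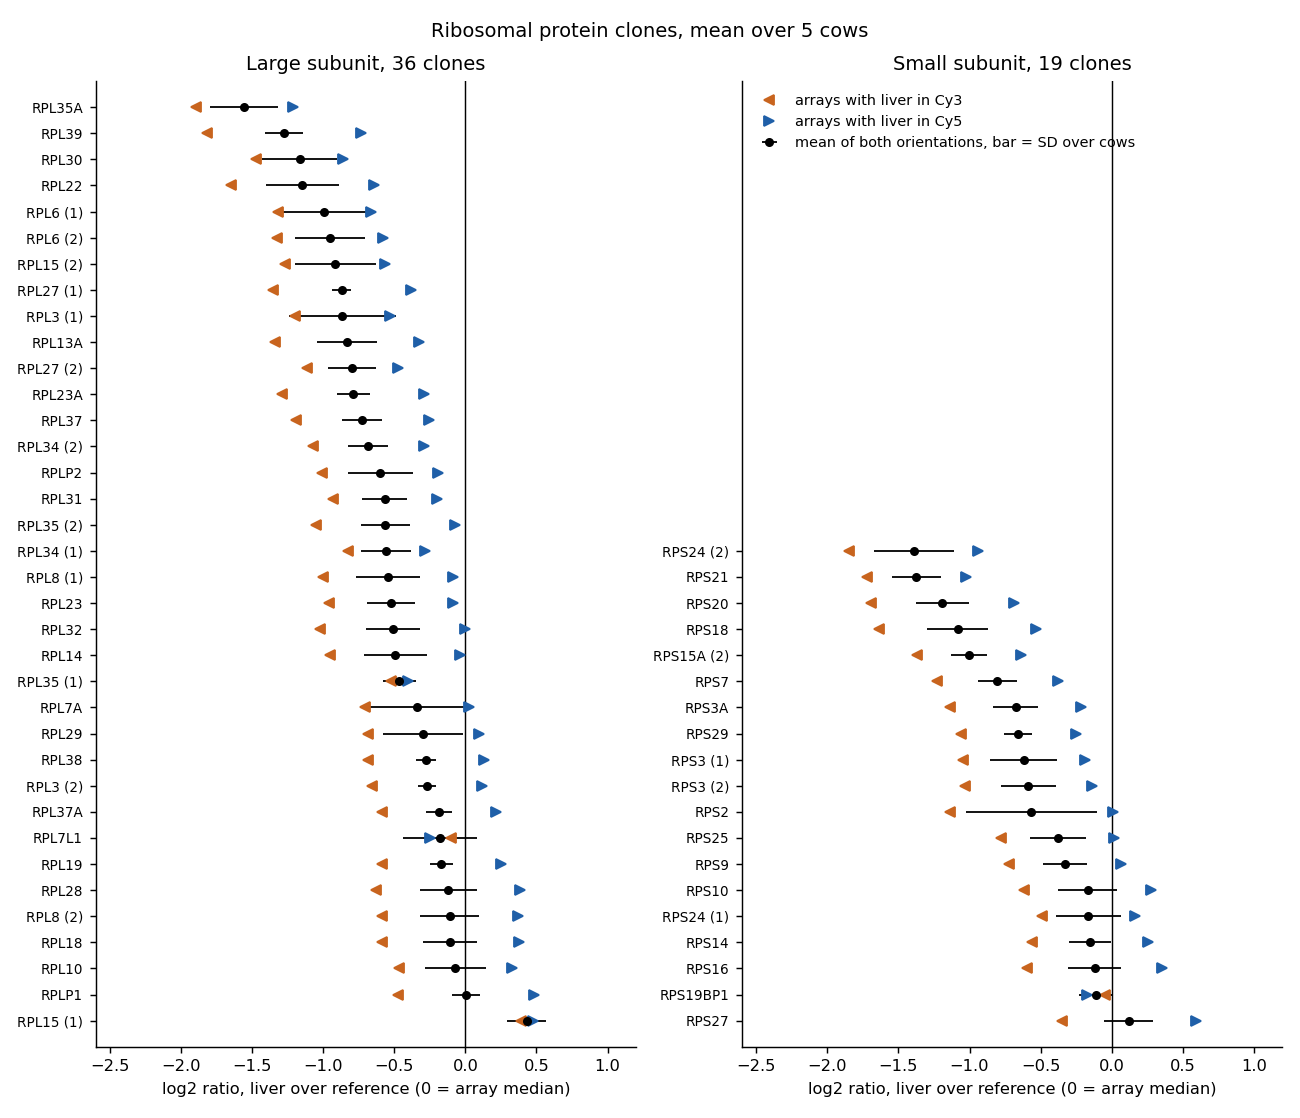
Mean log2 ratio of liver over reference for each tested clone, 36 of the large and 19 of the small subunit, with bars for the SD over 5 cows and separate marks for arrays with liver in Cy3 and in Cy5. Most means lie left of 0, from -1.55 for RPL35A to 0.43 for clone 1 of RPL15, and for 53 of 55 clones the Cy5 mark lies to the right of the Cy3 mark.

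The size of this shift depended on the dye that carried the liver cDNA. On arrays with liver in Cy3 the median over the members was -1.01, and 52 of 55 clones were called below 0 (94.5% beside 30.8% of all tested clones). On arrays with liver in Cy5 the median was -0.19. There 22 of 55 were called below, 40.0% beside 37% of all, a share near the background, and 11 were called above, 20.0% beside 28.1%. Of the 41 members called with both orientations, 7 had means on the other side of 0 on Cy5 arrays, from 0.0087 to 0.13, and 0 of these 7 were called there: RPL7A, clone 2 of RPL3, RPL29, RPL38, RPS9, RPS2 and RPS25. Of the 11 called above on Cy5 arrays, clone 1 of RPL15 was called above on Cy3 arrays too. The others were called below on Cy3 arrays and so passed on opposite sides of 0 by dye. They were RPL10, RPL18, RPL19, RPL28, clone 2 of RPL8, RPLP1, RPS10, RPS14, RPS16 and RPS27. A limma test of Cy5 minus Cy3 over the cow means called 51 of 55 members above 0, or 92.7% beside 35.7% of all tested clones, and 0 below, where 36.2% of all clones fell. The median difference was 0.82 over the members and 0.0018 over all clones. RPLP1 shows it on the scale of 1 clone, with a mean of -0.47 ± 0.089 on Cy3 arrays and 0.48 ± 0.23 on Cy5 arrays (SD, n = 5 cows; limma adjusted p = 0.00211 and 0.00249). These lie on opposite sides of 0, and RPLP1 averages near 0 only over the exchanged pair.

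The 4 members whose dye difference was not called were RPL7L1 at -0.15 (limma adjusted p = 0.267), RPS19BP1 at -0.13 (0.393), clone 1 of RPL15 at 0.088 (0.463) and clone 1 of RPL35 at 0.12 (0.344). The first 2 of these are the symbols that are not structural ribosomal proteins. The largest dye differences were 1.15 for RPS2, which sits by the mRNA entry channel of the small subunit, 1.10 for RPS18 and 1.08 for RPL39. What produced the dye difference was not tested. Because both orientations are averaged with equal weight, a part that is the same on every array of a dye cancels in the cow-day value.

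The remaining 3 clones did not have values in 3 cows on every day and entered no test. RPL5, which binds 5S ribosomal RNA, was measured in 21 cow-days with a mean of 0.61 ± 0.42 (SD, n = 5 cows). RPS12 was measured in 19 cow-days at 0.45 ± 0.57, and clone 1 of RPS15A in 26 cow-days at 0.15 ± 0.58. Their Cy5 minus Cy3 differences were -2.70, -2.97 and -3.08, the opposite sign to 53 of the 55 tested clones. Clone 2 of RPS15A was complete, and it lay below 0 in 5 of 5 cows. A further 6 clones that name a ribosomal protein with a second gene (1 with RPLP0, 2 with RPL12, 2 with RPS26 and 1 with RPL10A) were not counted as members.

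For 9 genes a pair of clones was tested, which shows how far clones named for 1 gene differed. Why they differed was not tested. Both clones of RPL27 (-0.87 and -0.79), RPL34 (-0.56 and -0.68), RPL35 (-0.46 and -0.56), RPL6 (-0.99 and -0.95) and RPS3 (-0.62 and -0.59) had close mean ratios. For RPL15 clone 1 had 0.43 with a 95% interval from 0.24 to 0.63 and clone 2 had -0.91 with an interval from -1.15 to -0.68. These intervals do not overlap, so the pair lay on opposite sides of the array median. The clones of RPS24 (-0.16 and -1.39), RPL3 (-0.86 and -0.27) and RPL8 (-0.54 and -0.11) kept one sign with means far apart.

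Over the 30 cow-days, which share cows, days and arrays, the Pearson correlation of the clones of a gene was 0.95 for RPL6, 0.94 for RPS3, 0.89 for RPL34, 0.68 for RPL15 and 0.68 for RPL27. It was 0.40 for RPL35, 0.21 for RPL3, 0.03 for RPS24 and -0.20 for RPL8, and for RPL8 it was 0.076 on Cy3 and 0.13 on Cy5 arrays. Clones of RPL6, RPS3 and RPL34 thus varied together from cow-day to cow-day, unlike those of RPS24 and RPL8. Transcripts of near-identical paralogs and pseudogenes, of which ribosomal protein genes have many, cannot be told apart on cDNA clones.

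The day effect gave no call among the ribosomal proteins. In the limma fit with terms for day and cow, 0 of 55 members passed an adjusted p under 0.05 for any difference among the 7 days, beside 0.0189% of all tested clones. At an unadjusted p under 0.05 there were 2 of 55, or 3.64% beside 5.06% of all, which is no more than the background. The 2 were RPLP1 (F = 4.07, limma adjusted p = 0.733) and clone 1 of RPL27 (F = 3.69, limma adjusted p = 0.794). The next by p were clone 2 of RPS15A, RPL38, clone 1 of RPS3 and RPL32, each with a limma adjusted p of 0.958.

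RPLP1 lay at 0.05, 0.12, -0.17, 0.0032 and 0.08 on day -65 in cows 6934, 6983, 7079, 7186 and 7188. On day -30 the same cows had RPLP1 values of 0.41, 0.12, 0.79, 0.30 and 0.18. On day 1 they had -0.35, -0.38, -0.24, -0.26 and -0.37. With both orientations averaged, all 5 cows were thus above 0 on day -30 and below 0 on day 1, and the days do not overlap. RPLP1 was picked by its p for the day effect, so days that stand apart are partly built in by the choice. How many of all tested clones have days without overlap was not counted. On Cy5 arrays RPLP1 ran from 0.39 to 1.03 on day -30 and from -0.19 to 0.56 on day 1, and the days overlapped. On Cy3 arrays it ran from -0.44 to 0.86 on day -30 and from -1.12 to -0.57 on day 1. Those days did not overlap, but day -30 lay on both sides of 0. RPLP1 was at -0.30, 0.43 and -0.11 on day -14 in cows 6983, 7186 and 7188, and at 0.01, -0.22 and 0.08 on day 14 in cows 6983, 7079 and 7186. On day 28 it was 0.17, 0.05, 1.04, 0.18 and -0.21, and on day 49 it was -0.20, -0.51, -0.16 and -0.33 in the 4 cows other than 6983. Day 49 lay low in all 4 cows, while cow 7079 stood far above the others on day 28.

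Clone 1 of RPL27, a protein of the large subunit, lay at -0.99, -1.09, -0.99, -1.30 and -0.71 on day -65 in the order of cows given for RPLP1. On day -30 the RPL27 values were -0.42, -0.76, -0.38, -0.77 and -0.63. On day 1 they were -1.29, -0.92, -1.14, -0.58 and -1.63. Day 1 overlapped day -65 broadly, and overlapped day -30 through cow 7186 at -0.58 alone. On day 28 RPL27 clone 1 was at -0.83, -0.41, 0.26, -0.56 and -0.52, and on day 49 at -1.21, -1.17, -1.20 and -0.91 in the 4 cows other than 6983. With both orientations averaged, every cow of day 49 lay below every cow of day 28. This clone was picked by its p as well, so such a separation is partly built in by the choice. The days overlapped on each dye alone. On Cy3 arrays cow 7188 had -1.29 on day 49, above -1.39 in cow 6934 on day 28. On Cy5 arrays cow 7079 had 0.086 on day 49, above -0.11 in cow 7188 on day 28. On days -14 and 14 RPL27 clone 1 ran from -1.18 to -0.77 and from -1.22 to -0.67 over 3 cows each.

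**Figure D2:**
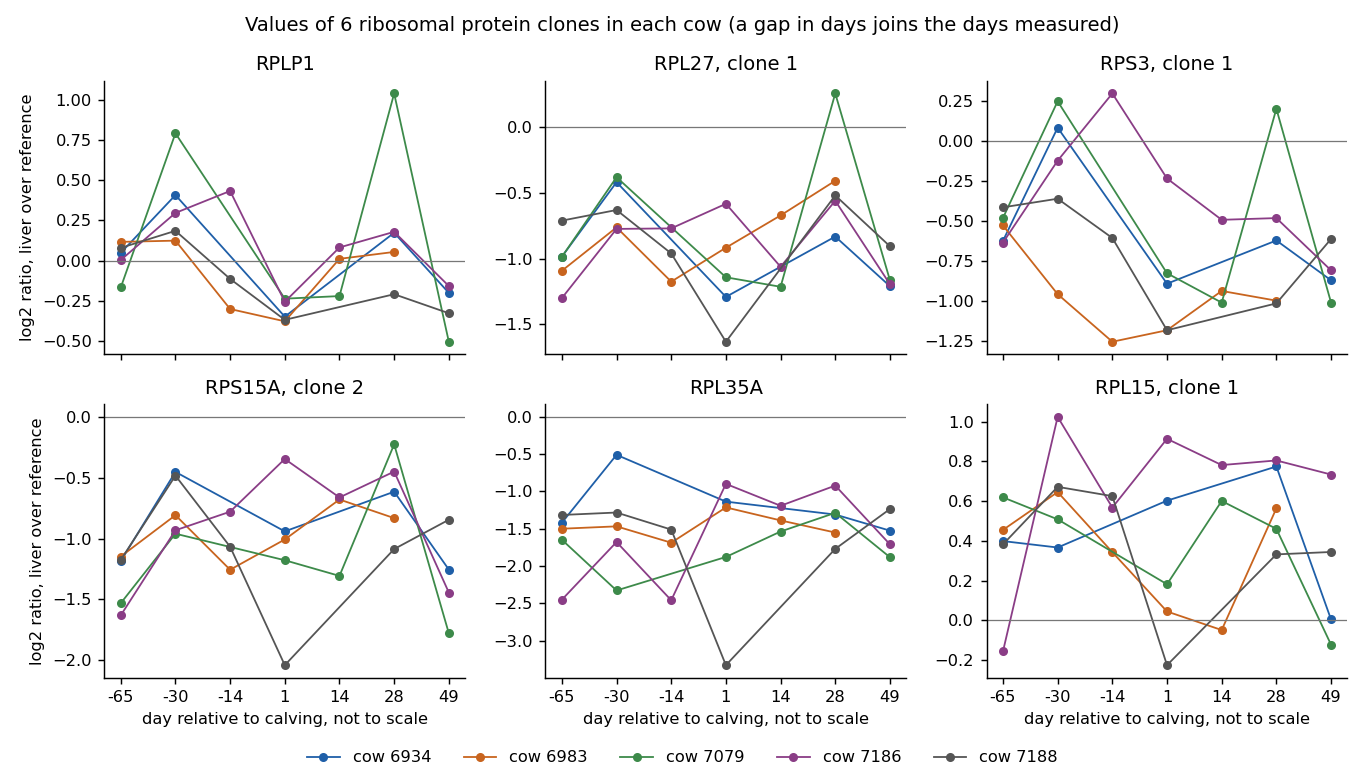
Log2 ratio of liver over reference by day for RPLP1, clone 1 of RPL27, clone 1 of RPS3, clone 2 of RPS15A, RPL35A and clone 1 of RPL15, with 1 line per cow and the days evenly spaced. With both orientations averaged, RPLP1 is below 0 in 5 of 5 cows on day 1, and RPL35A drops to -3.33 in cow 7188 on that day alone.

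Summed up by subunit, the members' medians were higher on some days than on others, with wide spread over cows. The large subunit median was -0.63 ± 0.20 on day -65, -0.33 ± 0.25 on day -30, -0.54 ± 0.43 on day -14 and -0.70 ± 0.36 on day 1 (mean and SD over 5, 5, 3 and 5 cows). After calving it was -0.55 ± 0.32 on day 14, -0.37 ± 0.20 on day 28 and -0.66 ± 0.17 on day 49 (3, 5 and 4 cows). The small subunit median on the same 7 days was -0.51 ± 0.14, -0.43 ± 0.21, -0.77 ± 0.38, -0.69 ± 0.28, -0.70 ± 0.13, -0.40 ± 0.22 and -0.76 ± 0.30. Days -30 and 28 were the highest for both subunits, but their SDs reach those of the other days.

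**Figure D3:**
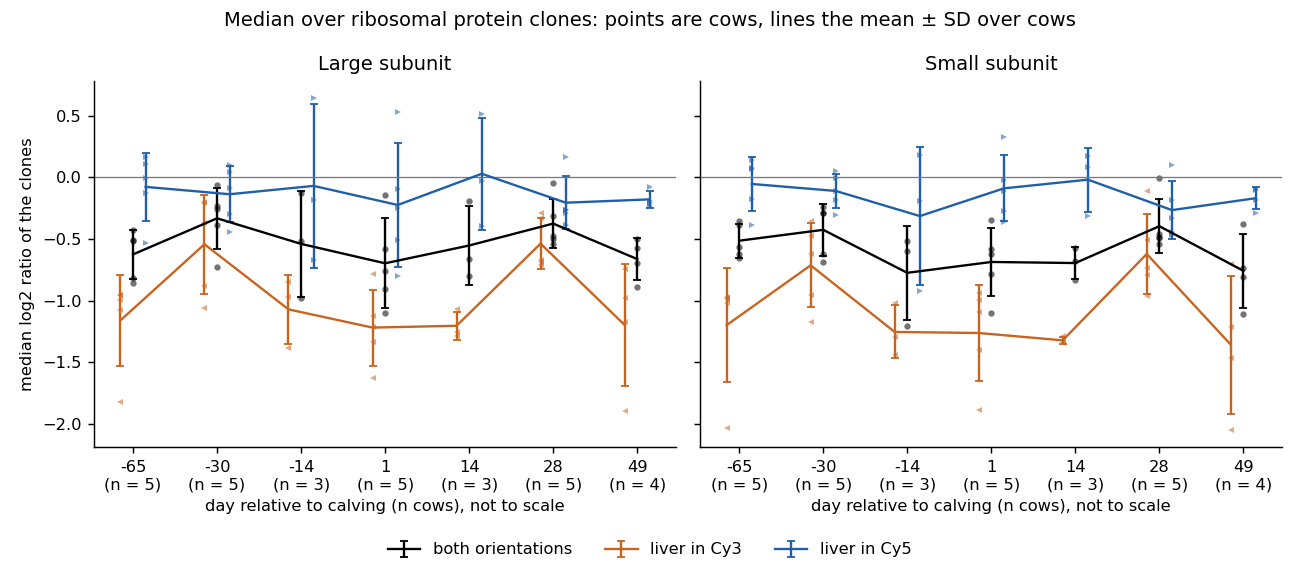
Median log2 ratio over the tested clones of the large subunit (left) and the small subunit (right) by day, with points for cows and lines for the mean ± SD over 3 to 5 cows, for both orientations and for each alone. On Cy3 arrays the large subunit median is -0.54 on days -30 and 28 and between -1.22 and -1.07 on the other days, while on Cy5 arrays it stays between -0.22 and 0.03.

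This pattern over days was that of the arrays with liver in Cy3. On Cy3 arrays the large subunit median was -1.16, -0.54, -1.07, -1.22, -1.21, -0.54 and -1.20 on the 7 days in order, and the small subunit median was -1.20, -0.71, -1.26, -1.26, -1.32, -0.62 and -1.36. On Cy5 arrays the large subunit median was -0.08, -0.14, -0.07, -0.22, 0.03, -0.21 and -0.18, and the small subunit median was -0.05, -0.11, -0.31, -0.09, -0.02, -0.27 and -0.17. The 2 days that stood high with liver in Cy3 did not stand high with liver in Cy5.

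Among the 8 comparisons between days, 0 members were called in any, and the estimates are given for their size and side. They share days and therefore samples, so that adjoining comparisons are not independent. For day -30 minus day -65, 0 of 55 members passed an adjusted p under 0.05 by limma (0% of all tested clones did) and 4 passed an unadjusted p under 0.05 (7.27% beside 9.94% of all). The median estimate was 0.27, beside 0.047 over all clones, with 8 of 55 below 0 (14.5% beside 45.2%). The furthest above 0 were clone 2 of RPS15A at 0.61 ± 0.24 (SE; 5 of 5 cows; limma adjusted p = 0.486), RPS3A at 0.58 ± 0.40 and RPL7A at 0.56 ± 0.28 (both above 0 in 4 of 5 cows). The furthest below were RPS9 at -0.15, clone 1 of RPS24 at -0.14 and RPS10 at -0.096.

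For day 1 minus day -30, 0 of 55 members were called by limma (0.0189% of all), and 10 passed an unadjusted p under 0.05 (18.2% beside 7.59% of all). The median estimate was -0.33 beside -0.03 over all, with 50 of 55 below 0 (90.9% beside 53.6%). RPL7A was lowest at -0.72 ± 0.28 (SE), below 0 in 5 of 5 cows. RPLP1 was at -0.68 ± 0.18 (SE), also below 0 in 5 of 5 cows, with an unadjusted p of 0.000804 and a limma adjusted p of 0.310, the smallest of any member in the 8 comparisons. RPL28 was at -0.66 ± 0.25 (SE) with 5 of 5 cows. RPS21 at 0.17, RPS19BP1 at 0.086 and clone 2 of RPL8 at 0.056 lay furthest above 0.

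The step from day 1 to day 28 ran the other way in size. The median estimate for day 28 minus day 1 was 0.28 beside 0.042 over all, and 5 of 55 lay below 0 (9.09% beside 42.4%). By limma 0 of 55 were called (0% of all) and 9 passed an unadjusted p under 0.05 (16.4% beside 7.35%). Clone 1 of RPL27 was highest at 0.70 ± 0.20 (SE; 5 of 5 cows; limma adjusted p = 0.335), then clone 2 of RPL15 at 0.65 ± 0.34 and RPS7 at 0.62 ± 0.26 (4 of 5 cows each). Furthest below 0 were RPS19BP1 at -0.23, RPS9 at -0.17 and clone 2 of RPL8 at -0.093.

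For day 49 minus day 28, which 4 cows share, the median estimate was -0.37 beside -0.022 over all, with 49 of 55 below 0 (89.1% beside 53.4%). Here 0 of 55 were called by limma (0% of all), while 16 passed an unadjusted p under 0.05 (29.1% beside 7.06%). RPS18 was at -0.75 ± 0.28 (SE; 4 of 4 cows), RPS2 at -0.74 ± 0.33 (3 of 4 cows) and clone 1 of RPL27 at -0.70 ± 0.21 (4 of 4 cows; limma adjusted p = 0.509). RPS9 at 0.22, clone 1 of RPL35 at 0.16 and clone 1 of RPS24 at 0.11 lay furthest above 0. RPS9, which sits near the mRNA entry channel of the small subunit, was thus at the edge opposite to most members in 3 of these 4 comparisons, each time without passing a test.

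**Figure D4:**
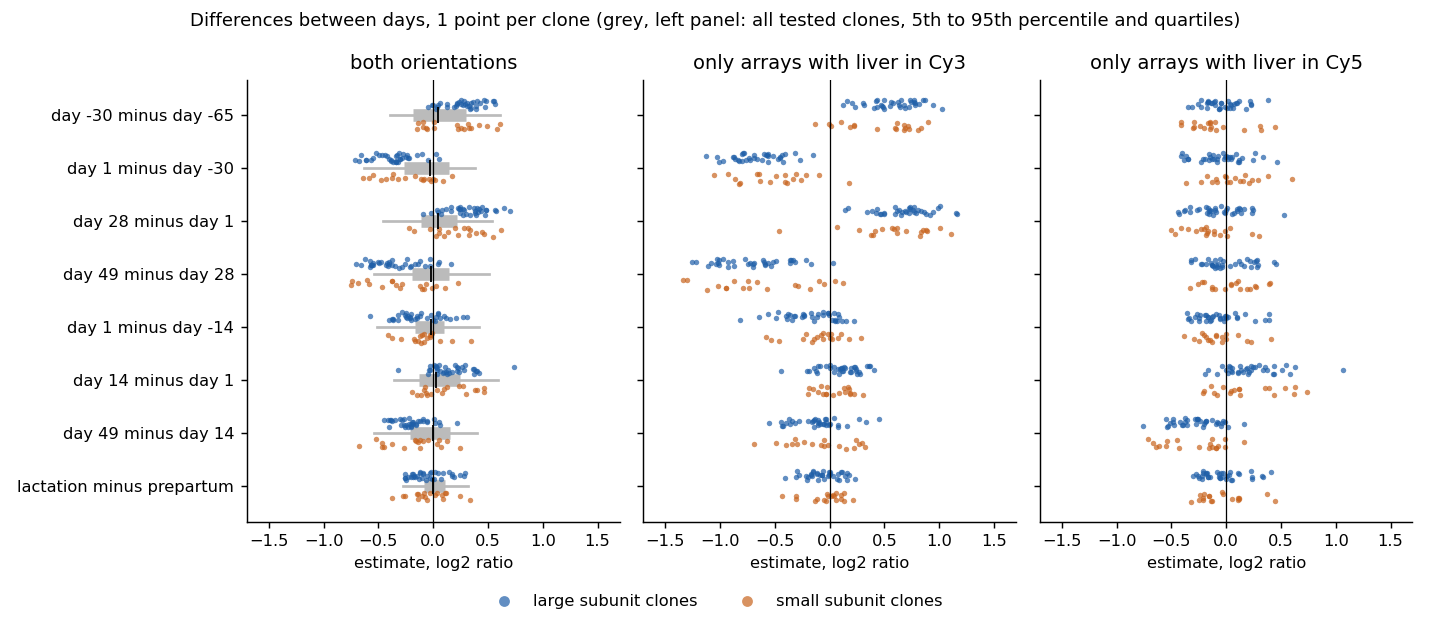
Estimated difference between days in log2 ratio for each tested clone of the large and the small subunit in 8 comparisons, from both orientations (left) and from arrays with liver in Cy3 (middle) or in Cy5 (right) alone, with the percentiles of all tested clones in grey on the left. In the comparisons among days -65, -30, 1, 28 and 49 most members lie to one side of 0 in the middle panel and around 0 in the right panel.

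With both orientations the large and small subunit medians of these 4 comparisons, in the order given, were 0.28 and 0.22, -0.34 and -0.17, 0.31 and 0.23, and -0.39 and -0.30. Split by dye, the estimates away from 0 were those of the Cy3 arrays. With liver in Cy3 the large and small subunit medians were 0.60 and 0.60 for day -30 minus day -65, -0.68 and -0.49 for day 1 minus day -30, 0.71 and 0.61 for day 28 minus day 1, and -0.70 and -0.73 for day 49 minus day 28. With liver in Cy5 they were -0.05 and -0.15, -0.05 and 0.03, -0.10 and -0.17, and -0.05 and 0.04. The counts of members below 0 were 2, 54, 1 and 52 of 55 on Cy3 arrays against 36, 28, 38 and 29 of 55 on Cy5 arrays. For day 1 minus day -30 and day 49 minus day 28 nearly all members were below 0 on Cy3 arrays. On Cy5 arrays they were spread over both sides of 0. In the other 2 comparisons nearly all lay above 0 on Cy3 arrays, and more lay below 0 than above on Cy5 arrays. For day 1 minus day -30 RPLP1 was below 0 on both, at -0.97 and -0.38, as was RPL7A at -1.03 and -0.40.

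The difference between orientations was itself fitted with the same model, an alternative added after the values were seen. The median of Cy5 minus Cy3 over the members was -0.60 for day -30 minus day -65, 0.63 for day 1 minus day -30, -0.80 for day 28 minus day 1 and 0.73 for day 49 minus day 28, beside -0.089, 0.137, -0.197 and 0.124 over all clones. By limma 0 of 55 members, and 0% of all clones, passed an adjusted p under 0.05 in each. At an unadjusted p under 0.05 there were 27 members (49.1% beside 7.31% of all), 29 (52.7% beside 8.88%), 43 (78.2% beside 25.2%) and 31 (56.4% beside 11.4%). The smallest limma adjusted p of a member was 0.0775, for day 28 minus day 1, and was reached in both subunits. There RPS21 of the small subunit had 0.61 on Cy3 arrays and -0.50 on Cy5 arrays. For day 28 minus day 1 the large subunit median was higher on day 28 in 5 of 5 cows with liver in Cy3 and in 3 of 5 cows with liver in Cy5. Whether the Cy3 or the Cy5 arrays reflect the liver RNA was not tested.

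Around calving the values were smaller and rest on fewer cows. The medians of the fit, which draws on all cow-days, are given first. For day 1 minus day -14, with 3 cows on both days, the large and small subunit medians were -0.16 and -0.09, with 41 of 55 members below 0 (74.5% beside 55.6% of all). For day 14 minus day 1, with 3 cows on both days, they were 0.13 and 0.08, with 13 of 55 below 0 (23.6% beside 47.6%). For day 49 minus day 14, with 2 cows on both days, they were -0.20 and -0.14, with 45 of 55 below 0 (81.8% beside 50.5%). In each of the 3 limma called 0 of 55 (0% of all), and 0 of 55 passed an unadjusted p under 0.05, beside 2.31%, 2.73% and 1.97% of all. Within the cows that had both days the picture was different. For day 14 minus day 1 the small subunit median was lower on day 14 in 3 of 3 cows, with differences of -0.061 in cow 6983, -0.049 in cow 7079 and -0.23 in cow 7186, and the large subunit median was lower in 2 of 3 cows. These are opposite in sign to the fitted medians, apart from the large subunit of cow 6983. For day 1 minus day -14 the within-cow difference averaged -0.17 ± 0.36 for the large and 0.087 ± 0.55 for the small subunit (SD, n = 3 cows), again with the small subunit on the other side of 0. The fitted small subunit median turned sign to 0.022 for day 1 minus day -14 and to -0.021 for day 14 minus day 1 when cow 7188 was left out. Array weights turned day 1 minus day -14 to 0.067 for the large and 0.082 for the small subunit. The side of 0 on which these comparisons lie therefore depends on such choices.

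Days 14, 28 and 49 of lactation were also set against the 3 prepartum days. The large and small subunit medians were -0.08 and -0.06 (0.061 and 0.079 with arrays not centred), and 35 of 55 members lay below 0 (63.6% beside 50.1% of all). Limma called 0 of 55 (0% of all), and 3 passed an unadjusted p under 0.05 (5.45% beside 3.83%). The lowest was clone 1 of RPS3, a small subunit protein at the mRNA entry channel that also has a role in DNA repair. Its estimate was -0.38 ± 0.14 (SE), below 0 in 5 of 5 cows, with an unadjusted p of 0.0149 and a limma adjusted p of 0.997. RPS3 clone 2 gave -0.26 ± 0.14 (SE) with 4 of 5 cows. RPS27 was at -0.27 ± 0.17, and RPS3A at 0.33 ± 0.27, clone 2 of RPL15 at 0.29 ± 0.22 and clone 2 of RPL6 at 0.28 ± 0.24 lay furthest above 0. The 95% interval of a typical member reached 0.48 to either side of its estimate in the comparisons of 2 days with 5 cows each, and 0.32 in this one.

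Large and small subunit medians differed by less than the spread over cows, with large minus small averaging 0.046 ± 0.095 (SD, n = 5 cows). By cow it was 0.089 in cow 6934, -0.035 in cow 6983, 0.014 in cow 7079, 0.19 in cow 7186 and -0.029 in cow 7188. The large subunit was the higher in 20 of 30 cow-days, and single cow-days ran from -0.28 to 0.39. In each of the 8 comparisons the fitted large and small medians had the same sign when both orientations were used, but the means of the within-cow differences had opposite signs for day 1 minus day -14 and for day 14 minus day 1 (0.049 ± 0.17 large and -0.11 ± 0.099 small; SD, n = 3 cows).

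Members varied together across cow-days, in more than one pattern. Over the 30 cow-days the median Pearson correlation was 0.40 over the 1485 pairs of members, with 322 pairs below 0, and 0.003 over pairs of all complete clones. It was 0.45 among large subunit clones, 0.23 among small subunit clones and 0.37 between them. On Cy3 arrays alone it was 0.57 and on Cy5 arrays 0.36. All points share cows, days and arrays, and no test was made.

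The patterns were read around 3 clones chosen after their values were seen: RPL35A with the lowest ratio, RPLP1 with the smallest p, and clone 2 of RPL8, which did not follow clone 1. Most like RPL35A were clone 2 of RPS24 (r = 0.95), RPL22 (0.92), clone 2 of RPL6 (0.91), RPL30 (0.90) and RPL23 (0.89), and least like it were RPS19BP1 (-0.45), RPS14 (-0.35) and RPL28 (-0.23). Most like RPLP1 were RPL28 (0.83), RPL38 (0.82) and clone 1 of RPS3 (0.81). Most like clone 2 of RPL8 were RPS10 (0.82), clone 1 of RPS24 (0.75), RPS16 (0.72) and RPS9 (0.62), and least like it were RPL7L1 (-0.58) and clone 1 of RPL3 (-0.57).

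The 4 lowest cow-days of RPL35A were set beside other clones. These cow-days were picked by RPL35A itself, and the clones most like it by their correlation with it. Shared low values are therefore partly built in by the choice. Leaving out the lowest values of RPL35A also narrows its range, which by itself can lower a correlation. RPL35A had -3.33 in cow 7188 on day 1, -2.46 in cow 7186 on day -14, -2.45 in cow 7186 on day -65 and -2.33 in cow 7079 on day -30, and between -1.88 and -0.51 in the other 26. The same 4 were the lowest of clone 2 of RPS24, at -3.24, -2.48, -2.97 and -2.13 against -2.01 to -0.24 in the other 26. They were also the lowest of RPL22, at -2.97, -2.45, -2.50 and -2.14 against -1.92 to -0.22. RPL28 did not share this: it was at -0.30, 1.09, 0.07 and 0.96 there, and 1.09 was its highest value of all 30. RPL7A was likewise at its highest, 1.08, in cow 7186 on day -14. Without the 4 cow-days the correlations with RPL35A were 0.88 for clone 2 of RPS24, 0.75 for RPL22, 0.74 for clone 2 of RPL6, 0.88 for RPL30 and 0.83 for RPL23, and that of RPS3A was 0.55 in place of 0.84. Of the clones with correlations below 0, RPL28 had 0.17 without the 4 cow-days and RPLP2 had 0.39 in place of -0.22. RPS14 stayed below 0 at -0.22 and RPS19BP1 at -0.13. By dye, RPL28 had 0.26 with RPL35A on Cy3 arrays and -0.33 on Cy5 arrays.

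**Figure D5:**
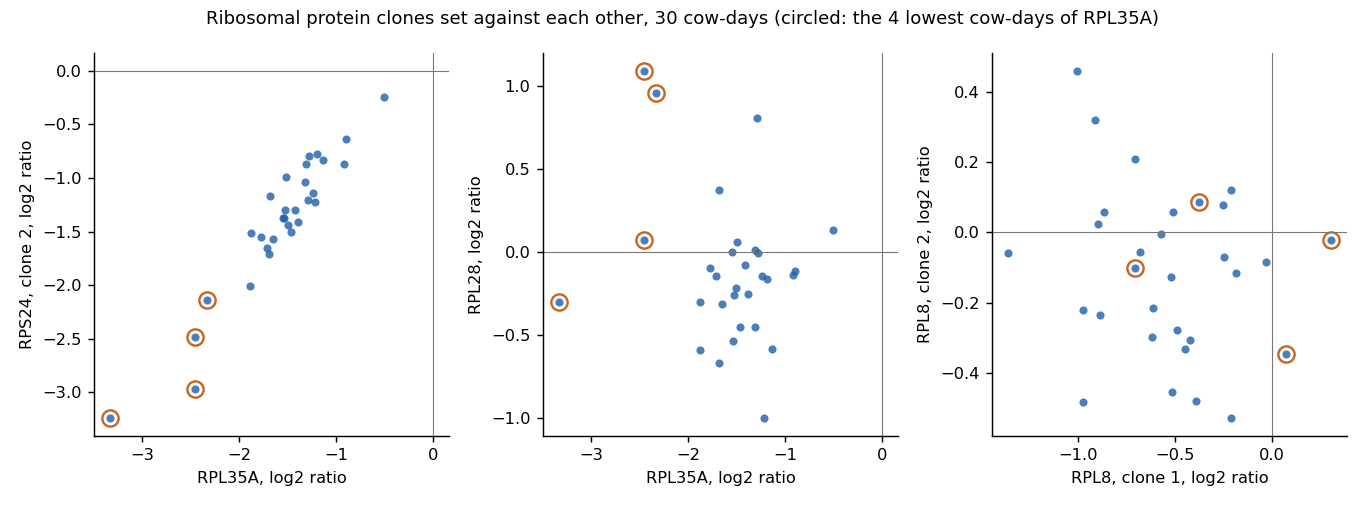
Log2 ratio of liver over reference in 30 cow-days for RPL35A against clone 2 of RPS24, RPL35A against RPL28, and clone 1 against clone 2 of RPL8, with the 4 lowest cow-days of RPL35A circled. RPL35A and clone 2 of RPS24 run along a line (r = 0.95), RPL28 has -0.23 with RPL35A over all 30 cow-days and 0.17 without the 4 circled ones, and the clones of RPL8 show no relation (-0.20).

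Other genes of ribosome production give the setting. RACK1, a scaffold on the head of the small subunit that the naming rule misses, was tested on 3 clones. Their median estimates were 0.44, -0.69, 0.65 and -0.81 for day -30 minus day -65, day 1 minus day -30, day 28 minus day 1 and day 49 minus day 28, and 0 of 3 were called by limma in each. The 3 clones differed, with ranges of 0.20 to 0.59, -0.73 to -0.066, 0.033 to 0.68 and -1.04 to -0.25. The RACK1 medians were 0.87, -0.98, 0.95 and -1.06 with liver in Cy3, and 0.07, -0.38, 0.27 and -0.46 with liver in Cy5. Translation factors and other genes with terminal oligopyrimidine mRNAs had 25 tested clones, with medians of 0.31, -0.41, 0.43 and -0.34 in the same comparisons and 5, 22, 0 and 24 of 25 below 0. With liver in Cy3 these were 0.58, -0.54, 0.59 and -0.61, and with liver in Cy5 0.07, -0.28, 0.18 and -0.05. This list thus lay on the same side as the ribosomal proteins, with larger estimates on Cy3 arrays, and 0 of 25 were called by limma. The 3 RACK1 clones are among its 25, so it is no separate evidence from them. PABPC1, the poly(A)-binding protein, and EIF3M, a subunit of initiation factor 3, were its largest by the lactation estimate, and on day 1 minus day -30 the clones of PABPC1 gave -0.74 ± 0.36 and -0.74 ± 0.43 (SE).

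Nucleolar assembly factors and mitochondrial ribosomal proteins had medians closer to 0 with both orientations. The 35 clones of nucleolar assembly had medians of 0.20, 0.02, -0.02 and -0.02, and the 46 of mitochondrial ribosomal proteins had -0.01, -0.06, 0.08 and -0.08, with 0 called by limma in either list. The nucleolar medians were 0.20, -0.10, 0.23 and -0.16 on Cy3 arrays, and 0.11, 0.02, -0.24 and 0.09 on Cy5 arrays. For day 28 minus day 1, 9 of 35 nucleolar clones lay below 0 on Cy3 arrays and 28 of 35 on Cy5 arrays. The mitochondrial medians were 0.095, -0.048, 0.21 and -0.091 on Cy3 arrays, and -0.12, -0.042, 0 and -0.053 on Cy5 arrays. In the level against the array median, 11 of 25 clones of the translation list were called below (44%). So were 13 of 35 of nucleolar assembly (37.1%), beside 23.9% of all tested clones. Of 46 mitochondrial ribosomal protein clones 7 were called below (15.2%) and 9 above (19.6%, beside 23.5% of all), no more than the background. The dye difference was called above 0 in 20 of 25 clones of the translation list (80%), beside 35.7% of all. It was called in 11 of 35 of nucleolar assembly (31.4%) and 14 of 46 of the mitochondrial list (30.4%), again no more than the background. LTV1 and UTP14A, factors of small subunit assembly, and MRPL28 and MRPL24 of the mitochondrial ribosome had the largest lactation estimates of these lists. LTV1 gave 0.87 ± 0.32 (SE) for day -30 minus day -65 (limma adjusted p = 0.486).

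Markers of other cell types were read beside these values. For the same 4 comparisons the 7 stellate cell and fibroblast clones had medians of 0.59, -0.69, 0.55 and -0.22, with 0, 7, 1 and 6 of 7 below 0, and 2 of the 7, clones of VIM, are also on the translation list. The 13 Kupffer cell and macrophage clones had 0.20, -0.40, 0.34 and -0.54, with 3, 12, 3 and 12 of 13 below 0. The 6 lymphocyte clones had 0.49, -0.27, 0.29 and -0.20, with 1, 5, 2 and 5 of 6 below 0, and the 6 endothelial clones had 0.16, -0.16, 0.18 and -0.11, with 2, 4, 2 and 5 of 6 below 0. All 4 of these lists thus had medians on the same sides of 0 as the ribosomal proteins with both orientations. In the first 2 comparisons the Kupffer medians were -0.0036 and -0.28 on Cy3 arrays, and 0.29 and -0.75 on Cy5 arrays. In that order the lymphocyte medians were 0.12 and -0.20, then 0.63 and -0.65. The endothelial medians were -0.05 and -0.07, then 0.11 and -0.43. The stellate medians were 1.04 and -0.995, then 0.29 and -0.29. In these 2 comparisons only the stellate list was thus further from 0 on Cy3 arrays. In the last 2 comparisons the stellate medians were 0.90 and -0.69 on Cy3 arrays, and 0.20 and 0.31 on Cy5 arrays. The endothelial medians there were 0.26 and -0.17, then 0.13 and -0.059, also further from 0 on Cy3 arrays. The lymphocyte medians were 0.26 and -0.245, then 0.38 and -0.16. The Kupffer medians were 0.36 and -0.46, then 0.43 and -0.61. Against the array median 7 of 7 stellate clones were called below 0 (median -2.93), and 12 of 13 Kupffer clones (1.66) and 5 of 6 lymphocyte clones (0.81) above. Of all tested clones 23.9% were called below and 23.5% above. With both orientations the 4 hepatocyte clones had medians of -0.25, -0.09, 0.27 and -0.67 in the 4 comparisons. The 4 bile duct clones had -0.17, 0.09, 0.08 and 0.034, and the 1 neutrophil clone 0.44, 0.42, 0.11 and -0.14. The part of any of these in the ribosomal protein values was not tested.

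A smaller table of 8 arrays from another print gave 4 further cow-days, kept out of the tests. In it the large and small subunit medians were -0.97 and -0.88 in cow 6934 on day -14, -1.18 and -1.08 in cow 7079 on day -14, -1.30 and -1.29 in cow 6934 on day 14, and -1.31 and -1.03 in cow 7188 on day 14. Between 49 and 51 of 55 members lay below 0 in each. The side of the array median was thus the same as in the larger table, while values of the 2 tables were centred separately. With both tables joined the large subunit median was -0.14 for day 14 minus day 1 and 0.11 for day 49 minus day 14, which turns the sign of both. It also turned day 1 minus day -14, to 0.067 for the large and 0.17 for the small subunit. Leaving out the 5 cow-days whose arrays did not oppose turned day 14 minus day 1 as well, to -0.12 for the large and -0.15 for the small subunit. It kept the sides of the other comparisons, with large subunit medians of 0.28, -0.32, 0.30 and -0.58 from day -65 to day 49, and 39 members called below the array median.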

How the data were processed

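The authors deposited a log2 ratio between both dyes for every spot. Per the labels, images came from a Scanarray 4000 and were quantified with GenePix 4.0. How background, flags and normalization were handled is not stated in the labels or headers. Each array was centred on the median over its spots of listed clones. The median over all rows of an array ran from -0.948 to 0.643 before centring. Arrays with liver in Cy3 had their sign turned. The 2 spots of a clone and the exchanged pair of a cow-day were averaged, and both orientations were required. Between 14607 and 16288 rows were measured per array. Symbols were updated through gene identifiers for 5591 of 5693 listed clones, and 5598 name 1 gene. The 2 spots of a member differed by a median of 0.082 (all clones 0.217).

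Clones with values in at least 3 cows on each of the 7 days were tested (5280, of which 4966 were complete), with limma 3.58.1 in R 4.3.3. Terms were day and cow, because the same animals were sampled repeatedly. Missing values were fitted exactly per pattern of missing cow-days, with moderated variances and 19 residual degrees of freedom. P-values were adjusted by Benjamini-Hochberg over all tested clones. The level test used the mean of each cow against 0. Whether P-values cover biological or array spread cannot be told apart.

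Members and lists were chosen with earlier results of these data known. Named were RPLP1, RPLP2, genes with a pair of clones, the 6 smallest p of the day effect, the 3 clones furthest above and below 0 in each comparison, the 3 highest and lowest ratios, and the 2 largest of each list. On simulated data, 10% of clones changed by 0.5 and 72% of those changed by 1 (log2) were recovered for day 1 minus day -30. Of 5080 unchanged clones 8 were called. The level test recovered 60% and 98%. In the simulation 50 clones were changed by each of 0.5, 1, 2 and 3, and each clone was drawn independently. The real fit called 1 clone for that comparison and members vary together, so these shares may not hold for it.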

Additional observations from a re-analysis of the deposited data

Results flagged for a closer look

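Single cows stood apart from the rest of their day in 8 of the 90 groups of 4 or 5 cows that were looked at, where chance alone flags about 1 in 20. The groups share cows, days and arrays and are not independent, so no excess over that rate can be read from the 8. Cow 7186 on day -65 had Cy3 medians of -1.82 for the large and -2.03 for the small subunit, against medians of -0.98 and -0.99 over the other cows, and clone 2 of RPS24 was at -2.97 there against -1.37. Cow 7079 on day 28 had a small subunit median of -0.0053 against -0.49 and a large subunit median on Cy5 arrays of 0.17 against -0.27. Clone 1 of RPL27 was at -0.91 in cow 7188 on day 49 against -1.20. RPL32 was at -0.013 in cow 7186 on day 1 against -0.91. RPLP2 was at 0.13 in cow 7188 on day 1 against -0.70, so the cow lowest for RPL35A that day was the highest for RPLP2.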

How the results depend on the processing

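Under the alternatives run, 0 members were called between days in any. Of the 41 members called in level, 7 turned sign on Cy5 arrays alone (0.0087 to 0.13, 0 called) and 0 in the other alternatives of that test. Some members not called in level, RPLP1 among them, were called below on Cy3 arrays and above on Cy5 arrays. For the day effect 1 clone of all tested was called, 0 with no replicate block for cow, with liver in Cy5 only, without centring, scaled to equal spread, without cow-days whose arrays did not oppose, or with trend and robust settings, 9 with array weights, and 0 to 0 without each cow. Array weights called 3 clones for day -30 minus day -65, 2 for day 1 minus day -30 and 4 for day 14 minus day 1. For day 1 minus day -30 (1 called) Cy5 arrays, equal spread and a fit on those days alone called 0, and leaving out a cow 0 to 1, as for day 28 minus day 1 and day 49 minus day 28. Cy3 arrays alone called 6 for day 28 minus day 1, 2 for day 49 minus day 28 and 1 for day 1 minus day -14. Without non-opposed cow-days 3 were called for day 14 minus day 1 and 4 for day 49 minus day 14.

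By dye, the small subunit median of day -30 minus day -65 was 0.60 on Cy3 and -0.15 on Cy5 arrays, and for day 28 minus day 1 the large was 0.71 and -0.095 and the small -0.17 on Cy5. For day 14 minus day 1 the large and small medians were 0.31 and 0.26 uncentred, -0.14 and -0.16 with joined tables, and -0.12 and -0.15 without non-opposed cow-days; the small was -0.039 on those days alone and -0.021 to 0.14 without each cow. For day 49 minus day 14 the large was -0.65 at equal spread and 0.11 joined. The small was -0.082 without the block, -0.10 with a random block, -0.054 on Cy3 arrays, -0.40 uncentred, -0.57 at equal spread, -0.10 with weights, 0.095 joined, -0.24 on those days alone, -0.042 without non-opposed cow-days, and -0.27 to -0.053 without each cow. Lactation against prepartum was 0.061 for the large and 0.079 for the small subunit uncentred, and 0.022 for the large with array weights. Without centring the median of all clones moves by over 0.1, to 0.11 for day 28 minus day 1, -0.16 for day 49 minus day 28, 0.20 for day 14 minus day 1, -0.26 for day 49 minus day 14 and 0.14 for lactation. Members called below the array median were 22 instead of 40 on Cy5 arrays and 37 to 40 without each cow, and uncentred 61.7% instead of 50.4% of all calls lay below. The cause of these differences was not tested. The number of arrays and cows limits precision, and signal over background is unknown.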
